A study of Mus musculus with 4 samples.

Results

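This section describes 9 genes of the DNA damage checkpoint and of DNA repair (Atm, Atr, Chek1, Chek2, Wee1, Brca1, Brca2, Fancd2 and Parp1) in 4 primary mouse tumours. They were chosen by name, and all 9 were among the 22180 genes that the arrays could name. Each gene was read from a probe set annotated to that gene alone. Atr had a pair of such probe sets, and the brighter one was used.

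The tumours came from the ALK TH-MYCN neuroblastoma model, in which the TH-MYCN transgene drives MYCN in cells that make tyrosine hydroxylase. Every tumour carried the genotype Alk mutant, TH-MYCN and Stat6-/- on a C57BL/6 x 129Sv/J background, so the 4 arrays form 1 group with no control group. The labels give neither age nor treatment, nor whether the tumours came from separate animals. The spread below is therefore the spread between these 4 samples, and their number limits its precision.

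Values are RMA signals on a log2 scale, where 1 unit is a 2-fold difference. The background floor was set at 6.17, the 95th percentile of the mean levels of 1394 odorant and vomeronasal receptor genes, taken as silent in tumour tissue. The 4-tumour means of 8989 genes lay above it. The label names sternocleidomastoid muscle as the tissue, but 0 of 10 skeletal muscle markers lay above background, while 7 of 7 measured sympathoadrenal markers did. Stat6 itself measured 5.75 to 5.92 and lay under the floor in every tumour, which does not check its deletion, since the part its probe set reads is not given. Tumour 4 stood apart in sex-linked genes, with Xist at 10.13 (3.89 to 3.95 elsewhere) and the Y-linked Uty at 3.89 (7.24 to 7.58 elsewhere). Differences of tumour 4 and of sex therefore cannot be told apart.

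ATM and ATR are kinases at the top of the DNA damage response. ATM answers double-strand breaks, and ATR answers single-stranded DNA at stalled replication forks. They activate the kinases CHEK2 and CHEK1, which together with WEE1 hold back the cyclin-dependent kinases until the DNA is repaired. BRCA1 and BRCA2 act in homologous recombination, FANCD2 marks crosslinks for repair, and PARP1 detects single-strand breaks. In neuroblastoma, MYCN drives cells into S phase, and inhibitors of ATR, CHEK1, WEE1 and PARP1 have been studied against this tumour.

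Many genes of S phase are controlled by E2F factors, so the promoters were searched for the E2F core, taken as TTNNCGC with each N being C or G, on either strand. RefSeq promoters of GRCm38.p6, from 250 bases before to 50 bases after the transcript start, were at hand for 7 of the 9 genes. The E2F core was present in 5 of these 7, against 9.57% of all 32851 promoters and 17.1% of those of genes above background. The stretches around it are shown because they can be read beside the expression of these genes. Each is 30 bases on the gene's strand, with the match in capitals.
Chek1: cagcatgacgcaagcaggttttgGCGGGAA
Atm: tagagccggaaGCGGGAAggcgtgcgtaca
Brca1: gctagcgctagGCGCCAAgcggccggtttc
Brca2: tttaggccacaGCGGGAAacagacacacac
Chek2: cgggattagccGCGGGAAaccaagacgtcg
The Chek1 stretch lies at chr9:36726609-36726638 on the minus strand, with the match starting at base 44 after the start. That of Atm lies at chr9:53536638-53536667 on the minus strand (base 16 after the start), and that of Brca1 at chr11:101551916-101551945 on the minus strand (base 22 after the start). In Brca2, at chr5:150522442-150522471 on the plus strand, the match begins 168 bases before the start. In Chek2, at chr5:110839820-110839849 on the plus strand, it begins 152 bases before the start.

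Atr and Parp1 held no E2F core in this window. Parp1 held the E-box CACGTG, the motif that MYC family proteins bind, 49 bases before the start, and 7.15% of all promoters and 10.3% of those of genes above background held it. The stretch lies at chr1:180568830-180568859 on the plus strand.
Parp1: acctcccaaggaCACGTGctgaagccccgc
The CCAAT box (CCAAT, either strand) was found in Atm, Brca1 and Chek2, or 3 of 7, against 37.4% of all promoters. The cell cycle homology region (TTNGAA with N being T or C, on either strand) was found in Atr alone, against 19.2%, and the cyclic AMP response element TGACGTCA in Brca2 alone, against 1.79%. The GC box GGGCGG was found in Atm, Atr and Parp1, 3 of 7, against 35.7% of all promoters and 64.3% of those of genes above background. The matches of different motifs did not overlap. A match describes these letters and does not show that a factor binds.

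Of the 9 genes, 8 lay above background in each of the 4 tumours, where 40.5% of all named genes did so by their mean. Chek2 was the exception. It measured 5.66, 5.76, 5.28 and 5.12 in tumours 1 to 4, a mean of 5.45 ± 0.31 (SD, n = 4), under the floor in every tumour. Its mean lay at the 87.2nd percentile of the receptor genes, so its level is undetermined and it is not shown to be absent. The plot of the 9 genes by tumour shows this gap between Chek2 and the rest.

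**Figure D1:**
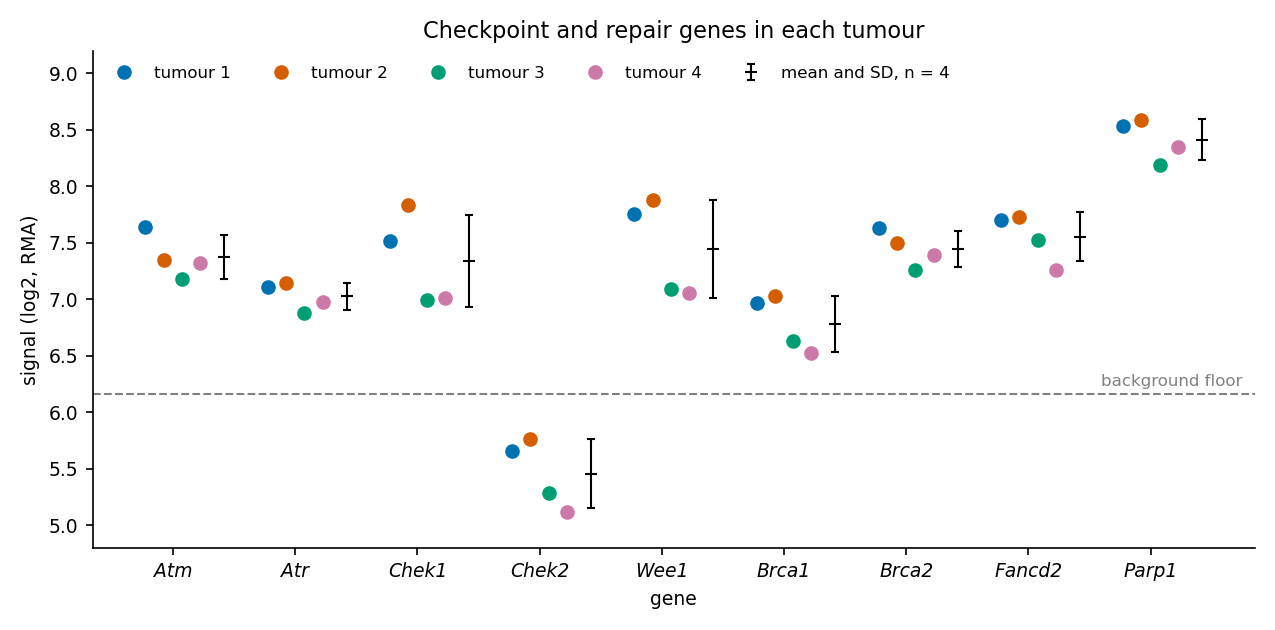
Signal of the 9 checkpoint and repair genes (log2, vertical axis) in tumours 1 to 4, with the mean and SD over 4 tumours beside each gene and the background floor of 6.17 as a dashed line. Chek2 lies under the floor in every tumour and the other 8 genes above it; levels of different genes depend on their probes and are not comparable.

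Of the apical kinases, Atr varied less than Atm. Atm measured 7.64, 7.35, 7.18 and 7.32 in tumours 1 to 4 (7.37 ± 0.19, SD, n = 4). Tumour 1 was highest, and its range of 0.46 fell to 0.17 without it, with the other 3 within that distance of each other. Atr measured 7.11, 7.14, 6.88 and 6.97 (7.03 ± 0.12, SD, n = 4) and had the narrowest range of the 9 genes, 0.26, or 1.20-fold between tumours 2 and 3. Among all genes above background, 21.7% had a narrower range. Without tumour 3 the Atr range was 0.17, while Atm (0.17) and Brca2 (0.24) were narrower than Atr without tumour 1, and Fancd2 (0.20) was without tumour 4. The dimmer Atr probe set measured 4.10 to 4.30, near the receptor genes' median of 4.01, and their mean of 5.62 would lie under the floor.

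The kinases that brake the cell cycle varied most. Chek1, the ATR-activated kinase, measured 7.52, 7.83, 6.99 and 7.01 in tumours 1 to 4 (7.34 ± 0.41, SD, n = 4). Tumour 2 was highest, tumour 1 was 0.32 below it, and tumours 3 and 4 were low and within 0.020 of each other. The range was 0.84, or 1.79-fold, wider than in 92.4% of genes above background. Wee1, the kinase that phosphorylates and holds back CDK1, followed the same order in its upper values, at 7.76, 7.88, 7.09 and 7.05 (7.45 ± 0.43, SD, n = 4). Its range was 0.83, or 1.77-fold, wider than in 91.7% of genes above background. Without tumour 2 the Chek1 range was 0.53 and the Wee1 range 0.70.

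The recombination genes differed from each other. Brca1 measured 6.96, 7.03, 6.63 and 6.52 in tumours 1 to 4 (6.78 ± 0.25, SD, n = 4), with tumours 1 and 2 close together and both above tumours 3 and 4. Brca2 measured 7.63, 7.50, 7.26 and 7.39 (7.44 ± 0.16, SD, n = 4), highest in tumour 1 and lowest in tumour 3. Its range of 0.37 was 1.30-fold, against 0.50 and 1.42-fold for Brca1, and it was 0.24 without tumour 1 and also without tumour 3. Without tumour 4 the Brca1 range was 0.40, near that of Brca2 over all tumours.

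Fancd2, the crosslink repair protein, measured 7.70, 7.73, 7.53 and 7.26 (7.55 ± 0.22, SD, n = 4). Tumour 4 was lowest, and without it the range fell from 0.47 to 0.20. Parp1, the strand break sensor, measured 8.53, 8.59, 8.19 and 8.35 (8.41 ± 0.18, SD, n = 4). Its lowest value was in tumour 3, and its range was 0.40, or 1.32-fold, which fell to 0.24 without that tumour.

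None of the 8 genes above background reached a 2-fold range (0 of 8), which 4.26% of all genes above background did. A range of 0.5, or 1.41-fold, was reached by 3 of 8 (Chek1, Wee1 and Brca1), a share near the 35.1% of all genes. The median range was 0.47, against 0.41 over all genes above background. In the distribution of ranges, Chek1 and Wee1 stand toward the wide side, Atr toward the narrow side and the other 5 between them.

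**Figure D2:**
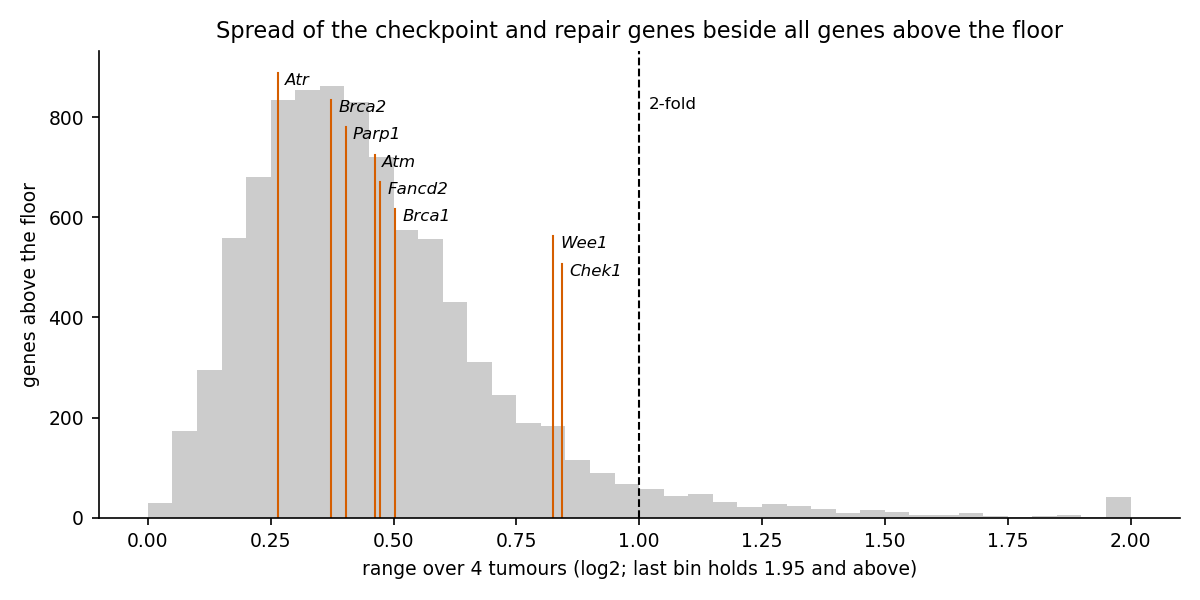
Range over the 4 tumours (log2, horizontal axis) of the 8989 genes above background (grey bars, number of genes per bin), with the 8 checkpoint and repair genes above background as vertical lines and the 2-fold range dashed. Wee1 (0.83) and Chek1 (0.84) are the widest and none reaches 1.

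The 8 genes shared their upper pair of tumours, though not the full order. The highest value was in tumour 2 in 6 of 8, against 26.9% of genes above background. It was in tumour 1 in 2 of 8, Atm and Brca2, against 46.6%. The lowest was in tumour 3 in 5 of 8, against 36.1%, and in tumour 4 in 3 of 8, against 38.6%. Tumour 2 exceeded tumour 4 by at least 0.5 in 3 of 8 (Chek1, Wee1 and Brca1), against 12.2% of all genes above background, and exceeded tumour 3 by as much in 2 of 8 (Chek1 and Wee1), against 10%. Both of the highest values lay in tumours 1 and 2 in 8 of 8 genes, a count made after their values were seen, against 50.7% of all genes above background. That share goes with a shift between the arrays. Genes above background had median deviations from their own means of 0.12, 0.04, -0.09 and -0.08 in tumours 1 to 4. The receptor genes moved the other way, with medians of 3.85, 3.95, 4.10 and 4.10. The shift thus depended on level, and its cause was not tested. It was removed by subtracting, in each tumour, the median deviation of genes of similar level.

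In relative terms both of the highest values lay in tumours 1 and 2 in 3 of 8 genes, against 25.1% of all genes above background. These were Chek1, Wee1 and Brca1. With each array centred on its median instead, the count was also 3 of 8, against 24.8%. The highest relative value was in tumour 2 in 6 of 8, against 27.8%, with Atm highest in tumour 1 and Brca2 in tumour 4. The median relative range of the 8 genes was 0.28, narrower than the 0.34 of all genes above background.

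Chek1 kept its spread, at 0.05, 0.47, -0.27 and -0.24 relative to genes of like level in tumours 1 to 4. Wee1 lay at 0.17, 0.39, -0.27 and -0.28. These relative ranges of 0.74 and 0.67 were 1.67-fold and 1.59-fold, wider than in 89.9% and 87.1% of genes above background. Brca1 lay at 0.06, 0.22, -0.10 and -0.18, a relative range of 0.41.

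Atr, Brca2, Parp1 and Atm lost much of theirs. Their relative ranges were 0.16, 0.16, 0.21 and 0.24, or 1.12-fold to 1.18-fold. Of all genes above background, 11.7% had a narrower relative range than Atr and 29.1% a narrower one than Atm. Fancd2 was low in tumour 4 alone, at -0.21, and lay at 0.01, 0.12 and 0.07 in tumours 1 to 3. The plot of deviations shows Chek1 and Wee1 outside the band of the other 6 genes in tumours 2 to 4, before and after the subtraction.

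**Figure D3:**
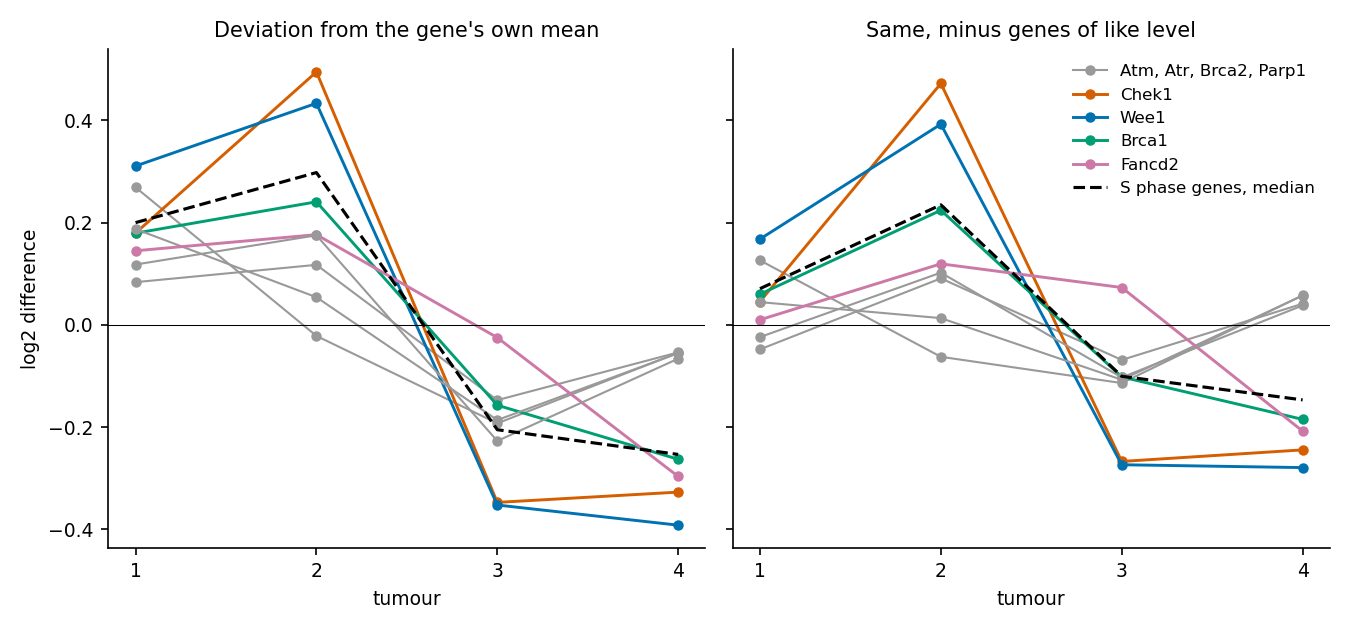
Deviation of the 8 genes from their own 4-tumour mean (log2, vertical axis) by tumour (horizontal axis), as measured on the left and relative to genes of like level on the right, with the median of 15 S phase genes dashed; lines only join the values of 1 gene. Chek1 and Wee1 exceed the S phase median in tumour 2 and lie below it in tumours 3 and 4. On the right, Atm, Atr, Brca2 and Parp1 (grey) lie between -0.11 and 0.13. In tumour 3, Atm, Brca2 and Parp1 are there close to the S phase median of -0.10.

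Genes of the cell cycle moved in the same direction, and their part in the result was not tested. Of 15 S phase genes above background, 13 had a relative deviation over 0 in tumour 2 and 2 did in tumour 4, with median relative deviations of 0.07, 0.23, -0.10 and -0.15 in tumours 1 to 4. For 15 mitosis genes the medians were 0.04, 0.17, -0.11 and -0.13. Among them Plk1, a mitotic kinase that also triggers the destruction of WEE1, measured 10.02, 10.41, 9.50 and 9.41, and Aurka, a spindle kinase, 8.47, 8.72, 7.76 and 8.06. Mcm4, a helicase subunit, measured 9.08, 9.21, 8.62 and 8.39, and Cdt1, which licenses origins, 8.33, 8.46, 8.17 and 7.53. E2f1, itself an E2F factor, was the narrowest S phase gene, at 8.10, 8.22, 7.94 and 8.06, and Cenpf, a kinetochore protein, the narrowest mitosis gene, at 8.05 in tumour 4 and 7.89 to 8.29 over all tumours.

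Set against the S phase genes, Chek1 deviated by 0.20 more than their median in tumour 2 and Wee1 by 0.14 more. Brca1 stayed within 0.06 of that median in each tumour. Atm, Atr, Brca2 and Parp1 differed from the S phase median by -0.32, -0.18, -0.24 and -0.12 in tumour 2 and by 0.19 to 0.20 in tumour 4. They were closer to it in tumour 3, at 0.01, 0.06, 0.02 and -0.02. In tumour 1 the differences were 0.07, -0.12, -0.01 and -0.08.

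Other cell types also differed between tumours. Macrophage markers, 9 of 10 above background, were lowest in tumour 3, where their summed unlogged signal was 2147 against 3352 to 3818 in the others. Fibroblast markers, 6 of 8 above background, summed to 2124 in tumour 1 and 988 to 1393 in the others. Schwann cell markers, 2 of 5 above background, summed to 1112 in tumour 1 and 420 in tumour 3, with relative medians of 0.71 and -0.69 there. In tumour 3 those 2 markers went opposite ways, with 1 above 0, so the median describes neither. Sympathoadrenal markers went against the cell cycle lists, with a relative median of -0.27 in tumour 2 and 0.26 in tumour 4, and their summed signal ran from 7918 in tumour 2 to 10565 in tumour 4. T and B cell markers (0 of 6) and adrenal cortex markers (0 of 5) were under the floor. In bulk tumours, fewer cells of a type and less RNA per cell cannot be told apart, and the part of cell composition in the order of the checkpoint genes was not tested.

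The partners of these genes were followed in lists of the pathway. Of 108 genes listed in 8 lists of sensing, checkpoint and repair, 95 were measured by a probe set of their own and 74 (77.9%) lay above background, where 40.5% of all named genes did. A range of at least 0.5 was found in 30 of the 74 (40.5%), against 35.1% of all genes above background. A 2-fold range was found in 2, against 4.26%. These were Tipin, with its lowest value just above the floor, and Bard1, with its lowest value under the floor. Both of the highest values lay in tumours 1 and 2 in 57 of 74 (77.0%), against 50.7% of all genes above background. In relative terms they did so in 39 of 74 (52.7%), against 25.1%. The plot of list medians shows tumour 2 to the right of 0 in every list drawn; mismatch repair, with 1 gene above background, is left out of it.

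**Figure D4:**
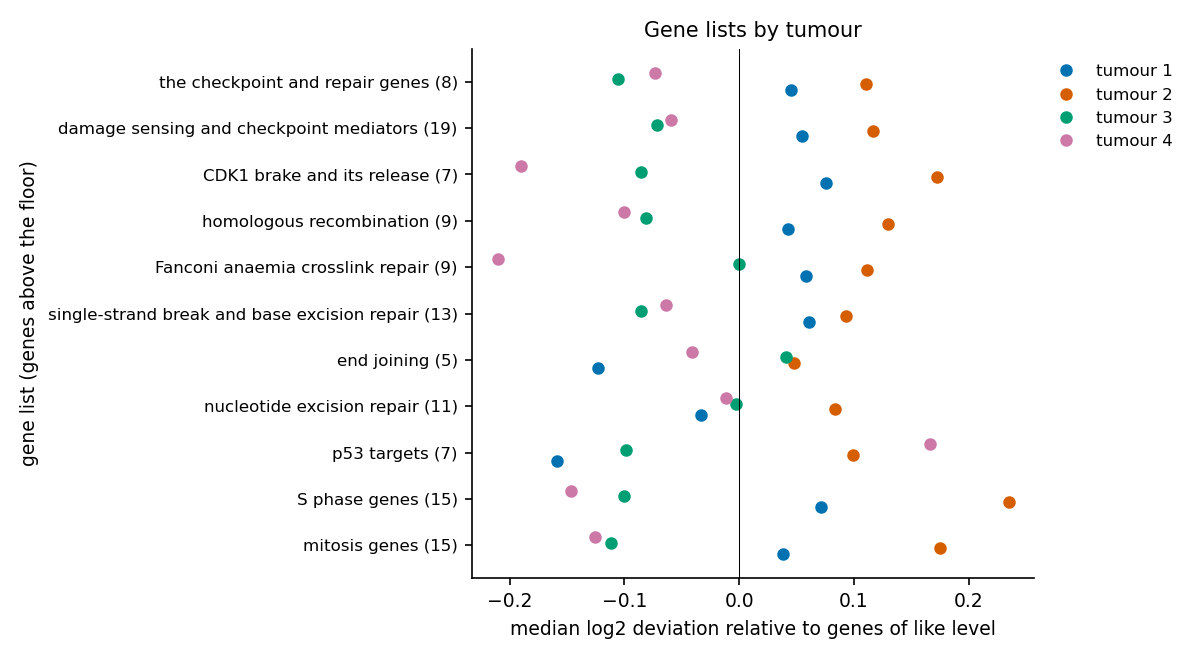
Median deviation relative to genes of like level (log2, horizontal axis) of each gene list (vertical axis, number of genes above background in brackets), with 1 point per tumour. Tumour 2 is above 0 in every list shown, with the S phase genes at 0.23 and the checkpoint and repair genes at 0.11.

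Among damage sensors and checkpoint mediators, 19 of 21 lay above background. For this and each list below, the share over all named genes was 40.5%. Of the 19, 12 were highest in tumour 2, against 26.9% of all genes above background. Tipin, which holds the replication fork with Timeless and helps ATR reach CHEK1, had the widest range. It measured 7.52, 7.63, 6.78 and 6.21 in tumours 1 to 4, a range of 1.41, or 2.66-fold, with tumour 4 lowest. The value in tumour 4 lay just above the floor, so the size of this fold is uncertain. Mre11a, the nuclease of the complex that recruits ATM, measured 7.49, 7.60, 6.84 and 7.20. Clspn, the adaptor through which ATR activates CHEK1, was the narrowest, at 6.41, 6.41, 6.30 and 6.23. Its range was 0.19, against 0.84 for Chek1. However, Clspn lay just above the background floor in every tumour, down to 6.23 in tumour 4. Its narrow range therefore does not show that Clspn was steadier than Chek1.

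Of the genes that set or release the CDK1 brake, all 7 measured lay above background. Ppm1d, the phosphatase that shuts off ATM, CHEK1 and p53 signalling, measured 8.83, 8.90, 8.08 and 8.17, a range of 0.82 with the tumours in the order of Chek1. Cdc25c, the phosphatase that undoes the work of WEE1, measured 8.05, 8.16, 7.89 and 7.57. Ccna2, the S phase cyclin, was narrow, at 10.64, 10.64, 10.33 and 10.68, with tumour 3 alone low as measured. Relative to genes of like level, it was -0.14 in tumour 3 and 0.19 in tumour 4.

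In homologous recombination, 9 of 14 measured genes lay above background. Bard1, the obligate partner of BRCA1, measured 6.54, 6.93, 6.18 and 5.74 in tumours 1 to 4. The value in tumour 4 lay under the floor, so its fold against the other tumours is uncertain. Like Brca1, it was highest in tumour 2 and lowest in tumour 4. Dna2, a nuclease of end resection, measured 7.16, 7.02, 6.49 and 6.50. Rad52 was nearly constant, at 6.61 to 6.83.

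Fanconi anaemia genes were above background in 9 of 13, and 8 of these 9 were lowest in tumour 4, against 38.6% of genes above background. Fanci, the partner of FANCD2 in the clamp that encircles DNA, measured 7.02, 6.89, 6.51 and 6.42. Fancf, of the core complex that ubiquitinates the clamp, measured 8.39, 8.10, 8.35 and 7.70, with tumour 4 low, as Fancd2 was. Slx4, a nuclease scaffold, was the narrowest, at 6.29 to 6.54. Relative to genes of like level the list's median was -0.21 in tumour 4, with 0 of 9 above 0, and Fancd2 measured -0.21 there as well.

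In single-strand break and base excision repair, the field of PARP1, 13 of 16 genes lay above background. Neil1, a DNA glycosylase, went against the common order, with its highest value of 6.70 in tumour 3 and 6.06 to 6.30 in the others. Its values in tumours 2 and 4 lay under the floor, so its order among the lower tumours is uncertain. Polb, the gap-filling polymerase, measured 7.27, 7.46, 6.92 and 7.07. Xrcc1, the scaffold that PARP1 recruits, was narrow, at 7.26 to 7.44.

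In end joining, 5 of 8 genes lay above background. Xrcc5, or Ku80, measured 7.40, 7.77, 7.25 and 7.10, Xrcc6, or Ku70, 6.86, 6.81, 6.58 and 6.42, and Lig4, the ligase of this pathway, 6.56 to 6.75 with its highest value in tumour 4. Of 5 mismatch repair genes 1 lay above background by its mean, Msh6, at 6.53, 6.55, 6.21 and 6.08, the last under the floor. All 11 measured nucleotide excision repair genes lay above background. Ercc1, an incision nuclease subunit, measured 8.18, 8.03, 7.75 and 7.41, Ercc3, a helicase of TFIIH, 8.89, 8.78, 8.44 and 8.36, and Ercc5 was nearly constant at 6.88 to 6.96.

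Targets of p53, which the ATM and ATR kinases activate, did not follow Chek1 and Wee1. Of 11 measured, 7 lay above background, and their median relative deviations were -0.16, 0.10, -0.10 and 0.17 in tumours 1 to 4. Cdkn1a, which encodes the CDK inhibitor p21, measured 8.86, 9.44, 8.72 and 9.09, high in tumours 2 and 4. Trp53inp1, a stress protein that promotes p53 activity, measured 6.98, 6.64, 6.65 and 7.21, and Phlda3, an AKT inhibitor, 7.03, 7.40, 7.27 and 7.41.

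The genes nearest in pattern to the median deviation of the 8 (0.18, 0.18, -0.19 and -0.16) were Scyl2, Slc25a12, Rbbp4, Rtn3 and Mettl2, with root mean square differences of 0.007 to 0.009 over 4 tumours. Within 0.05 of that median there were 423 of 8981 genes, so the pattern is common. Alk, the mutated receptor, measured 8.43, 7.73, 8.10 and 7.91, and Mycn, whose mouse probe set may not read the human transgene, 6.60, 6.01, 6.46 and 6.89. Both were lowest in tumour 2, where Chek1 and Wee1 were highest. The Mycn value there lay under the floor, so its level in that tumour is undetermined. A link of Alk or Mycn to the checkpoint genes was not tested.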

How the data were processed

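Total RNA of 4 tumours was hybridised to 1-colour Affymetrix arrays, 1 per tumour, per the labels. The deposited table holds 1 log2 value per probe set, and the submitters' processing notes name RMA and Partek, without versions or settings. The log base is not stated; the values, from 2.47 to 13.6, are treated as log2. RMA evens out array distributions, so a change in total RNA would not be seen. Of 41345 probe sets, 23521 had 1 gene in the platform annotation and were used, and 23328 symbols were updated with the RefSeq table of GRCm38.p6. For several probe sets of a gene, the brightest by 4-tumour mean was taken. With 1 group no test was run.

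Relative deviations subtract the median deviation of genes above background in the same of 20 bins of mean level. Genes outside the 9 were named if they had the widest 2 ranges or the narrowest in their list, the nearest pattern (5 genes), or checked the labels. The genes and lists were chosen with earlier results of these data known. The 2-fold range call was tested on simulated data with no shift between arrays, and the floor was not checked in this way. The work was done in Python 3.11.15 with numpy 2.4.6 and pandas 2.3.3.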

Additional observations from a re-analysis of the deposited data

Results flagged for a closer look

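Ccna2, the S phase cyclin, was the 1 gene of the 48 genes checked in which a single tumour stood far from the others. Tumour 3 measured 10.33 against 10.64 to 10.68, and its gap to the nearest tumour was 0.877 of the whole range, above Dixon's 95% critical value for 4 samples. This ratio was taken on the values as measured, which hold the shift between arrays. Relative to genes of like level, Ccna2 lay at -0.03, -0.01, -0.14 and 0.19 in tumours 1 to 4. There tumour 4, and not tumour 3, lay farthest from the rest. Chance alone gives about 1 such gene in 20. None of the 9 checkpoint and repair genes passed this limit, and the highest ratio among them was 0.63, in Atm.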

How the results depend on the processing

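No paired analysis was possible because there is 1 group. The settings tried were the mean of probe sets, other floors, no floor, a further quantile normalization, array centring and leaving out each tumour; deviations from genes of like level were chosen after seeing the data. The number of genes with both highest values in tumours 1 and 2 moved from 8 to 3 with arrays centred and to 3 relative to genes of like level, and was 6 after quantile normalization. The number lowest in tumour 4 was 3 to 8 when 1 tumour was left out, with 8 without tumour 3. These counts were fixed in advance, because all 8 genes had both highest values in tumours 1 and 2. They are therefore no further check. The number above background was 6 when the 99th percentile of receptor genes set the floor, and 9 when their median set it or none was set. No setting gave a 2-fold range in any of the 9 genes. Counts that need a left-out tumour could not be computed. Of the other counts and medians, 68 values under these settings stayed within the limits used (1.5 times, or 1 SD). The dim range of these arrays limits Chek2, which lies where signal and background overlap.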
